A study of Mus musculus with 6 samples.

Results

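The retinal pigment epithelium (RPE) is the single layer of pigmented cells between the photoreceptors and the choroid, the vascular bed behind the retina. It moves ions, lactate, acid and water from the retina towards the blood. Channels, pumps and transporters are divided between the apical membrane, which faces the photoreceptors, and the basolateral membrane, which faces the choroid. Here 9 such genes were described in RPE/choroid of C57BL/6J mice: the channels Best1, Kcnj13 and Clcn2, the chloride cotransporter Slc12a2, the lactate transporters Slc16a8 and Slc16a1, the sodium pump subunit Atp1b1, the carbonic anhydrase Car14 and the water channel Aqp1. They were chosen by name for this role, not by their values, although earlier results of these data were known. All 9 were found among the 33924 gene symbols of the table.

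Total RNA was sequenced after removal of ribosomal RNA, without selection for poly(A) tails, from 3 young and 3 aged wild-type mice. The young mice are labelled 1 to 2 months old, whereas the methods of the study give a slightly higher range. For the aged mice, sample titles state 20 to 24 months, but the label for time has 22 to 24. All 6 are labelled male, although the methods name both sexes, and each sample held the tissue of a pair of eyes. The tissue was scraped from the eyecup, so every value below is a mixture of RPE with choroidal vessels, melanocytes, fibroblasts and adhering retina.

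The measure used is the authors' mean normalized count, 1 value per gene averaged over the young and the aged libraries together. No value per mouse was analysed here, and the authors' own comparison of the ages was not used. No SD, interval or difference between ages is therefore given, and the depth of each library is unknown here. These values add up to 19192071 over all genes, and 26681 genes were above 0. The mean rose with transcript length, from a median of 55.9 in the shortest 20% of protein-coding genes to 920 in the longest 20%. Levels of different genes were therefore compared per kilobase (kb) of coding length, and again per kb of the longest transcript. The median per kb of transcript still rose with length, from 50.9 in the shortest 20% to 132 in the longest 20%. Division by length therefore did not remove the whole dependence. Orders of genes are per kb of coding length unless the other scale is named, and some turn per kb of transcript.

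The tissue carried the markers of its label and those of its neighbours. All 8 RPE markers lay in the most abundant 10% of the genes above 0, which began at a mean normalized count of 1700, and ran from 2292 for Rrh to 99321 for the thyroxine carrier Ttr. Of 6 rod photoreceptor markers, all were in the same 10%, with 5787 for Nrl and 13165 for Sag. Skeletal muscle markers ran from 11414 for Tnnt3 to 51830 for Myh4, and fibroblast markers from 5470 for Pdgfra to 64562 for Col1a2. Endothelial markers ran from 1025 for Cdh5 to 6377 for Kdr and melanocyte markers from 221 for Pax3 to 12711 for Ednrb. The Schwann cell marker Mbp had 1177. Markers of other retinal cells, 4 of 5 found under their symbol, ran from 75.7 for Grm6 to 28609 for Glul. For macrophages, 3 of 4 markers were found, from 779 for Cx3cr1 to 4063 for Csf1r. For erythroid cells, 4 of 5 were found, among them Slc4a1 at 45.2 and Hba-a1 at 2316. How much each of these cell types adds to the level of a transport gene was not tested. In a mixed tissue, fewer cells of a type and less RNA per cell cannot be told apart.

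Of the 9 transport genes, 7 lay in the most abundant 10%, and Clcn2 and Best1 did not. Together the 9 genes held 0.300% of the summed mean normalized counts. Their median level was 4918 mean normalized counts per kb of coding length, whereas the median of the 16444 protein-coding genes above 0 was 227. Slc16a1 stood highest on this scale, Slc16a8 per kb of transcript, and Best1 lowest on both. By the mean normalized count alone, Slc16a1 was again the highest of the 9, at 15405 and rank 86 of all genes. Best1 was at rank 13705.

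**Figure D1:**
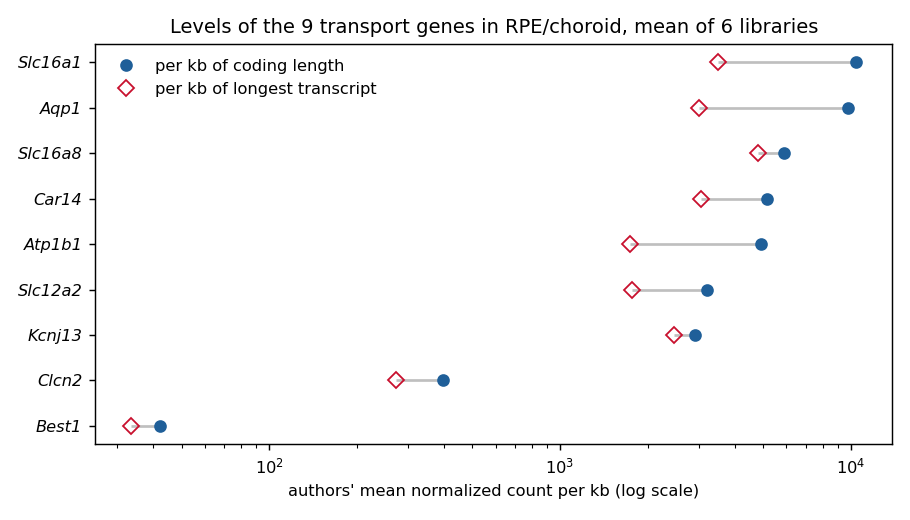
Levels of the 9 transport genes on a logarithmic axis, as the authors' mean normalized count over 6 libraries divided by the coding length (filled circles) or by the length of the longest transcript (open diamonds), both in kb. There are no error bars because no value per library was analysed. Slc16a1 leads at 10416 per kb of coding length and Slc16a8 at 4799 per kb of transcript, and Clcn2 and Best1 are lowest on both scales.

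Chloride leaves the RPE through basolateral channels after it has entered at the apical side. Best1 encodes bestrophin, a calcium-activated anion channel whose variants cause a macular dystrophy in people. The gene lies on chromosome 19 at 9985174 to 10001633 (GRCm38, minus strand). Its mean normalized count was 69.8, higher than that of 48.6% of the genes above 0. Its level was 42.2 per kb of coding length, higher than that of only 26.9% of the protein-coding genes above 0. The RPE isomerase gene Rpe65 was 648 times higher per kb of coding length and 700 times higher per kb of transcript. The other bestrophin genes were as low, with 63.6 per kb of coding length for Best2 and 28.9 for Best3. Best1 thus took 31.3% of the level of its family, second of 3 genes. Of the 31-base words in its transcripts, 98.8% occurred in no other gene.

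Clcn2 encodes a voltage-gated chloride channel that the retina needs for survival of its photoreceptors. It lies on chromosome 16 at 20702964 to 20717746, minus strand. Its mean normalized count was 1081, higher than that of 83.8% of the genes above 0. Its level was 397 per kb of coding length, higher than that of 62.5% of the protein-coding genes above 0. Clcn2 was 9.40 times higher than Best1 per kb of coding length and 8.17 times higher per kb of transcript. In its family of 8 it came next below Clcn3 at 1699 and Clcn7 at 885 per kb of coding length, which encode exchangers of endosomes and lysosomes. Clcn5 and Clcn6, which also act in endosomes, followed at 365 and 269, but per kb of transcript Clcn6 was above Clcn5, at 135 against 106. Of the family members known mainly as channels of the cell surface, Clcn1, the channel of skeletal muscle, was at 64.7. Exons of Clcn2 share 85 bases with Fam131a and 82 with Polr2h on the opposite strand. Whether reads were assigned by strand is not given in the sources used here, but both neighbours were lower than Clcn2, at mean normalized counts of 232 and 263.

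Other candidate routes for chloride were of unequal level. Ano1, a calcium-activated chloride channel, had 376 per kb of coding length, and Lrrc8a, a subunit of the volume-regulated anion channel, had 466. Both were near the 397 of Clcn2 on this scale. Cftr, the cyclic AMP-regulated chloride channel, had 4.83 per kb of coding length and a mean normalized count of 21.4.

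Slc12a2 encodes the sodium-potassium-chloride cotransporter that brings chloride into the cell across the apical membrane of the RPE. It lies on chromosome 18 at 57878678 to 57946821, plus strand. Its mean normalized count of 11548 was rank 123 of all genes. Because its coding sequence is long, 3618 bases, its level per kb of coding length was 3192, and it came sixth of the 9 genes on that scale. The level of this uptake gene was 8.04 times that of the channel gene Clcn2 per kb of coding length and 6.46 times per kb of transcript.

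Slc12a2 was the highest of its 9 family members on both length scales. It made up 99.8% of the level of the 3 sodium-coupled cotransporter genes per kb of coding length, since the kidney genes Slc12a1 and Slc12a3 were at 4.83 and 0.487. Among the potassium-chloride cotransporter genes, whose products carry chloride out of cells, Slc12a4 had 601 per kb of coding length.

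Potassium taken up at the apical membrane by the pump and by this cotransporter returns to the subretinal space through Kir channels. Kcnj13 encodes the inward rectifier that carries most of this current in the RPE, and its loss causes an inherited blindness of childhood. It lies on chromosome 1 at 87386363 to 87394729, minus strand, with a mean normalized count of 3140 and 2908 per kb of coding length. It was the highest of 15 genes of its family on both length scales and held 51.7% of the family's level per kb of coding length. Kcnj14 followed at 802 and Kcnj2, a channel of muscle and many other cells, at 680. Per kb of transcript Kcnj14 was again next, at 389, whereas Kcnj2 was below Kcnj8, at 160 against 246. Beside the other transport genes, Kcnj13 was below Slc12a2 and Atp1b1 per kb of coding length but above both per kb of transcript, at 2473 against 1771 and 1738. Kcnj10, the main inward rectifier of retinal Müller glia, had 152, so that Kcnj13 was 19.1 times higher per kb of coding length and 77.4 times higher per kb of transcript. Kcnj13 lies inside Gigyf2, a gene of the opposite strand with a mean normalized count of 2303, and the exons of both share 623 bases. As strand use in counting is not given in the sources used here, a part of the Kcnj13 value could be Gigyf2 reads, and this was not tested.

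Among the potassium channels outside this family, Kcnma1 had 181 per kb of coding length and Kcnq5 had 130. Cacna1d, an L-type calcium channel gene of the RPE, had 48.9. All 3 were below Kcnj13 and above Best1 on this scale. Per kb of transcript Cacna1d, at 33.1, was level with Best1, at 33.6.

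**Figure D2:**
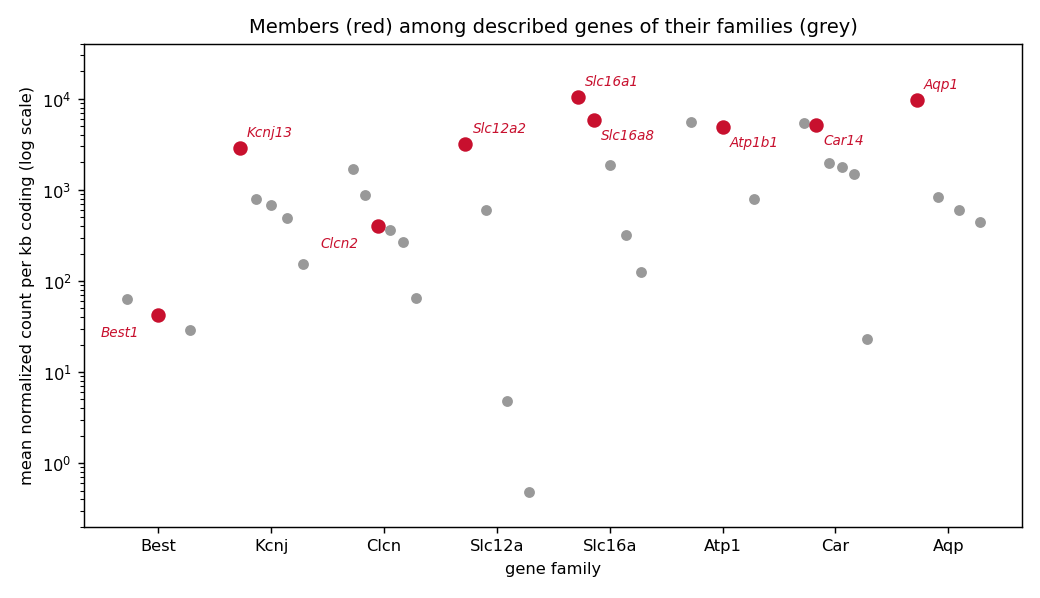
The genes described in the text from the 8 families to which the 9 transport genes belong, as the authors' mean normalized count per kb of coding length (logarithmic axis). Red points, with names, are the 9 genes and grey points their relatives, in falling order within a family. Kcnj13, Slc12a2, Slc16a1 and Aqp1 are the highest of their families on this scale (Slc16a8 leads Slc16a1 per kb of transcript), and the bestrophin genes all lie under 100 per kb.

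Photoreceptors and the RPE exchange lactate with protons through monocarboxylate transporters. Slc16a1 encodes MCT1, found at the apical membrane of the RPE and in many other cells. Slc16a8 encodes MCT3, found at the basolateral membrane of the RPE and in few other tissues. Slc16a1 lies on chromosome 3 at 104638668 to 104658462, plus strand, and Slc16a8 on chromosome 15 at 79251014 to 79254761, minus strand. Their mean normalized counts were 15405 and 8666. They were the first and the second of 14 genes of the family by this measure.

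Which of the 2 lactate transporters was higher depended on the length used. Their coding lengths are nearly equal, 1479 and 1476 bases, and on this scale Slc16a1 had 10416 per kb and Slc16a8 had 5872, a ratio of 1.77. The longest transcript is 4426 bases for Slc16a1 and 1806 for Slc16a8, and per kb of transcript Slc16a8 led, at 4799 against 3481. No order between both genes is therefore given. Both were far above the other genes known to carry lactate with protons. Slc16a3, the transporter typical of glycolytic muscle, had 317 per kb of coding length, and Slc16a7, a carrier found in neurons, had 127. Of the level of these 4 genes, Slc16a1 and Slc16a8 held 62.3% and 35.1% per kb of coding length and 41.4% and 57.1% per kb of transcript. The next gene of the wider family was Slc16a9 at 1890 per kb of coding length.

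Both lactate transporters need the chaperone basigin to reach the membrane. Bsg, its gene, was the highest of the 29 other transport genes, with a mean normalized count of 22118 and 18953 per kb of coding length. It exceeded Slc16a1 by a ratio of 1.82 and Slc16a8 by a ratio of 3.23 on this scale, and by ratios of 4.16 and 3.02 per kb of transcript. Emb, which encodes the related chaperone embigin, had 2476 per kb of coding length. Rods also express Bsg, and rod markers were abundant in these libraries.

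The sodium pump sets the gradients on which the other transporters run, and in the RPE, unlike most epithelia, it sits in the apical membrane. Atp1b1 encodes one of its beta subunits, which bring the catalytic alpha subunit to the membrane. It lies on chromosome 1 at 164437109 to 164458355, minus strand, with a mean normalized count of 4485 and 4918 per kb of coding length. Atp1b3 was slightly higher, at 5611 per kb of coding length, and it also led per kb of transcript, at 2347 against 1738. These 2 genes held 43.3% (Atp1b1) and 49.4% (Atp1b3) of the level of the 4 beta subunit genes. Only 83.8% of the 31-base words of Atp1b3 are its own, whereas those of Atp1b1 have none in common with another gene. Atp1b2, the beta subunit of glia, had 801. Exons of Atp1b1 share 575 bases with Nme7 on the opposite strand, whose mean normalized count was 288.

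Carbonic anhydrases turn carbon dioxide into bicarbonate and protons, which supports the removal of acid from the subretinal space. Car14 encodes a membrane-bound form with its active site outside the cell. It lies on chromosome 3 at 95897768 to 95904691, minus strand, and had a mean normalized count of 5215 and 5158 per kb of coding length. Car12, another membrane-bound form, was at a near-equal 5409 per kb of coding length, but per kb of transcript the order turned, with 3052 for Car14 and 1546 for Car12. Both genes held nearly all of the level of the 5 membrane-bound forms, 48.6% for Car14 and 50.9% for Car12 per kb of coding length. Car4, the form of the choriocapillaris, was at 22.8, so that Car14 was 226 times higher on this scale. The next genes of the family per kb of coding length were Car8 at 1986 and Car3, which is abundant in muscle and fat, at 1788. The cytosolic form Car2 had 1503. Per kb of transcript their order was Car3 at 831, Car2 at 656 and Car8 at 450. Exons of Car14 share 445 bases with Aph1a on the opposite strand, whose mean normalized count was 295.

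Bicarbonate carriers were lower than Car14 per kb of coding length. Slc4a2, an anion exchanger, had 1049, the sodium-bicarbonate cotransporter gene Slc4a4 had 864 and its relative Slc4a7 had 479.

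Aqp1 encodes a water channel of the RPE that is also abundant in red blood cells and in many endothelia. It lies on chromosome 6 at 55336432 to 55348555, plus strand, with a mean normalized count of 7874 at rank 244 of all genes. With 9758 per kb of coding length, it was the second of the 9 genes. Its order moved with the scale: by the mean normalized count alone Slc12a2 and Slc16a8 stood above it as well as Slc16a1, and per kb of transcript Slc16a8, Slc16a1 and Car14 did. Aqp1 was the highest of 11 aquaporin genes on both length scales and held 82.8% of the family's level per kb of coding length. Aqp4, the aquaporin of Müller glia, followed at 838 and Aqp5 at 600 per kb of coding length. Per kb of transcript Aqp5 at 266 and Aqp3 at 221 were above Aqp4 at 161. For the cells that share Aqp1, the mean normalized counts were 2316 for Hba-a1, 802 for Alas2 and 45.2 for Slc4a1 in red cells, and up to 6377 in the endothelial list. Their part in the Aqp1 value was not tested.

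The 9 genes were set beside 29 other genes of epithelial transport listed by name. All 29 were above 0, and 12 of them lay in the most abundant 10% of genes. Their median was 557 per kb of coding length. The highest per kb of coding length were Bsg, the taurine transporter gene Slc6a6 at 9752 and the glucose transporter gene Slc2a1 at 7418, and Atp1b3 was also near the top. Per kb of transcript Slc2a1 was above Slc6a6, at 3358 against 2937. The 5 lowest per kb of coding length were Cftr, Car4, Cacna1d, Slc16a7 and Kcnq5. Per kb of transcript Kcnj10 was among the 5 lowest in place of Kcnq5. Of the 9 genes, 7 lay above every channel gene in that list on both length scales. Best1 lay below all but Car4 and Cftr per kb of coding length, whereas per kb of transcript it was also above Slc16a7, Kcnj10 and Cacna1d. Slc13a3, a dicarboxylate transporter gene, had 390 per kb of coding length, next to Clcn2 on that scale.

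**Figure D3:**
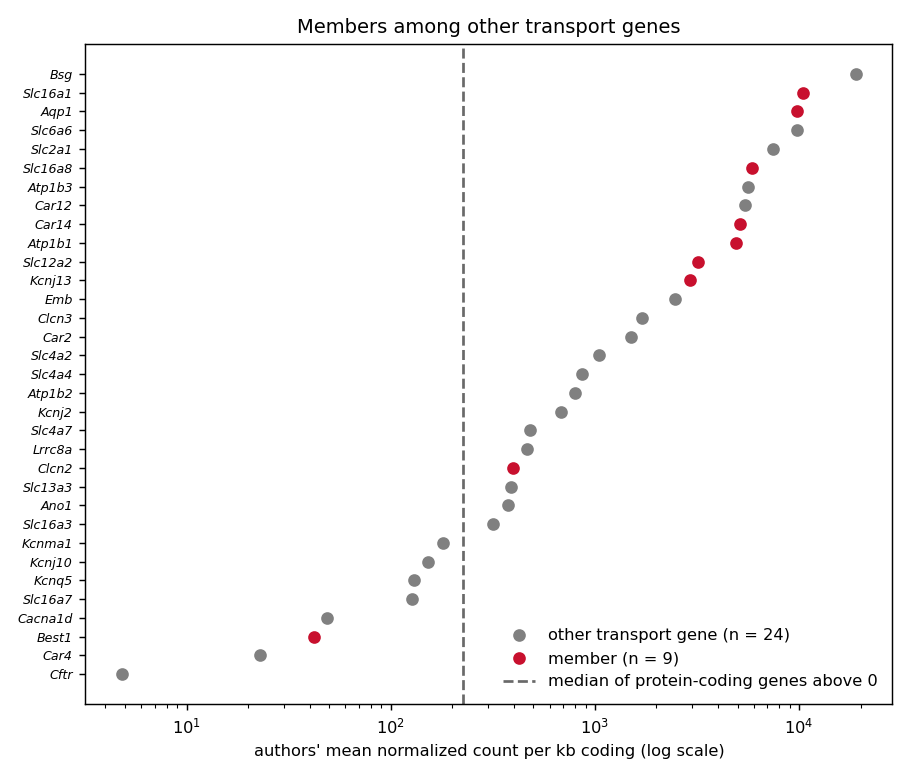
The 9 transport genes (red) among 24 other transport genes described in the text (grey), ordered by the authors' mean normalized count per kb of coding length (logarithmic axis). The dashed line marks 227, the median of the protein-coding genes above 0. Of the 9 genes, 8 lie to its right, and Best1 lies to its left at 42.2.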

How the data were processed

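RPE/choroid RNA from 3 young and 3 aged mice was sequenced by the authors on total RNA libraries made with a stranded kit. Per the methods of the study, the authors trimmed reads with BBDuk, mapped them with STAR to Ensembl transcripts of GRCm38, estimated abundances with Sailfish and compared the ages with DESeq2. The deposited baseMean is a signal that is never negative: the mean normalized count over the 6 libraries. Sailfish shares out reads that fit several genes. The table also has 5 columns of the authors' own comparison, namely the fold change, its standard error, the Wald statistic, the p-value and the adjusted p-value, and these were not used. It holds 0 columns that name a sample, so the planned test of aged against young was not run.

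Symbols were matched to GENCODE M21 (GRCm38), which gave 28553 of 33924 genes a model and 19113 a coding length. The coding length is the longest coding sequence and the transcript length the longest transcript of a gene. The level per kb is the mean divided by that length, and ranks were taken over genes above 0. Words of 31 bases were compared between all GENCODE transcripts. Scripts ran in Python 3.11.15 with pandas 2.3.3 and were tested on simulated data.

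The 9 genes, the families, the 29 other transport genes and the markers were chosen with earlier results of these data known, and the split of families into kinds of transporter was added after the levels were seen. Named genes are the 9 members, in each family the genes above the member and the 2 next highest, the 5 highest and 5 lowest of the other transport genes, and the highest and lowest marker of each list. Other genes named were chosen after their values were seen. Some genes of these lists are not reported here.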

Additional observations from a re-analysis of the deposited data

How the results depend on the processing

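No paired analysis was possible because single libraries have no column in the table. Fits without 1 library, or with another pseudocount or low-value filter, were not run either. The number of transport genes in the most abundant 10% was 7 in each of the 3 other ways of ranking. Their share of the summed level was 0.300%, 0.322% without the 10 most abundant genes and 0.341% over protein-coding genes alone. The number that led their family was 4 per kb of coding length, 4 with no division by length and 5 per kb of the longest transcript, where Slc16a8 and Car14 led and Slc16a1 did not. Of the 36 pairs of transport genes, 31 kept their order with no division by length and 30 per kb of transcript.

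Ratios were followed for 7 pairs of genes, an alternative added after the data had been seen. On the log2 scale, Slc16a1 over Slc16a8 went from 0.83 to -0.46 per kb of transcript, Car12 over Car14 from 0.07 to -0.98, and Slc12a2 over Kcnj13 from 0.13 to -0.48. Aqp1 over Slc16a8 went from 0.73 to -0.14 with no division by length and to -0.68 per kb of transcript. The construction of the length scale accounts for these changes. No depth per library is known here, so the counting error behind low values such as that of Best1 could not be given.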
